A study of Mus musculus with 2 samples.

Results

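Exonic regions open in both libraries were stretches of annotated exon, over 1 kb from every GENCODE transcript start, where DNase I cut the chromatin of 2 libraries labelled as thymus. Overlapping peaks (by at least 1 bp) of the shorter peak list of each library were merged. A merged region was kept when it held a peak of both libraries, when its midpoint lay over 1 kb from every GENCODE M21 transcript start, and when that midpoint lay inside an annotated exon. The regions were thus chosen by measured peaks, and their number, signal and placement are given as description. They numbered 1341 of 35217 regions open in both libraries. Of the other shared regions, 18125 lay at promoters, 7733 in introns and 8018 between genes. Of the 1341 exonic regions, 483 had their midpoint in coding sequence and 858 in untranslated exon. The untranslated ones comprised 461 in 3′ UTRs, 19 in 5′ UTRs, 159 in transcripts without coding sequence that belong to protein-coding genes, and 219 in other genes, mainly long noncoding RNAs.

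DNase-seq marks DNA that is free enough of nucleosomes for the nuclease DNase I to cut it. The single group is labelled as thymus tissue of male B6CASTF1/J mice, first-generation crosses between C57BL/6J and CAST/EiJ, aged 36 days, with no treatment named in the labels. The labels give 2 biological replicates and number the animals differently, yet both carry 1 donor identifier, so they may be 1 mouse or 2. The libraries labelled replicate 1 and replicate 2 are called library 1 and library 2, and paired values stand in that order.

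The libraries differed in ways that bear on every value. Of 14 promoters of thymocyte genes, library 1 had a peak at 2 and library 2 at 13, with summed signals of 8.29 and 87.3. Of 15 promoters of pancreatic acinar genes, 15 and 3 were open, with summed signals of 82.1 and 11.9. Promoters of thymic epithelium stood at 3 and 3 of 7, those of B cells at 1 and 1 of 5, those of myeloid cells at 1 and 1 of 5, and those of red cell precursors at 1 and 2 of 4. Library 1 therefore went against its tissue label at these genes. The part of this difference in the results below was not tested, and values of single libraries are given beside those results for which they were computed. Sequencing depth was unknown. Intervals are 95% intervals, Wilson's for a share and Newcombe's for a difference of shares, and cover only the counting of regions or genes. Regions of 1 gene are not independent, and 1 group of 2 libraries allows no test with libraries as replicates.

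Exons are better known for the RNA they give than for the proteins that bind their DNA. An open exon can mark an internal promoter, an enhancer or a binding site of CTCF, the zinc finger protein that holds the ends of chromatin loops. In coding sequence the bases at such a site also spell amino acids. CpG islands, which are GC-rich stretches that have kept their CpG dinucleotides, lie mostly at promoters and can reach into the first exons of a gene.

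A CTCF consensus stood in 29.0% of the regions. To show how such a site lies in an exon, the sites of the 6 strongest coding regions with a CTCF consensus inside a footprint of both libraries are printed. A footprint is a short stretch within a peak that is protected from cutting. Each is a 30-base stretch of the GRCm38 (mm10) reference, 5′ to 3′ on the strand that carries the consensus, with the 12 bases of the consensus in capitals. The CAST/EiJ allele of these mice may differ.
Def6: gcggcagaaCCGGCAGAGGGCagacgagga
Zfp219: tagatgtagCCGCCAGGGGGCgctcggaag
Pgls: gtccaggaaCCAGCAGAGGGCgcccgtgcg
Synpo2l: ttcatgcagCCACTAGGGGGCaggagttac
Ksr1: cagtgacggCCAGCAGGGGGCgctgtgtgt
Rasip1: ggtcctgcaCCAGCAGAGGGCgctccgcgt

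The Def6 stretch, chr17:28226263-28226292 on the plus strand, lay in exon 9 of 11 of a gene for an exchange factor that acts in T cell signalling. Its region had signals of 5.68 and 12.4. In Synpo2l, which encodes an actin-associated protein of muscle, the stretch at chr14:20661153-20661182 on the minus strand lay in the last of 4 exons, with region signals of 5.45 and 8.67. These 2 sites read along the strand of their gene. The other 4 read against it. Zfp219 (chr14:52008987-52009016, plus strand, exon 4 of 6) encodes a zinc finger protein and had signals of 4.88 and 14.5. Pgls (chr8:71596108-71596137, minus strand, exon 5 of 5) encodes an enzyme of the pentose phosphate pathway and had signals of 4.78 and 10.8. Ksr1 (chr11:79030661-79030690, plus strand, exon 11 of 11 of its transcript) encodes a scaffold of the Raf and MEK kinases and had signals of 5.67 and 7.84. Rasip1 (chr7:45628950-45628979, minus strand, exon 3 of 12) encodes a protein of blood vessel endothelium and had signals of 5.54 and 7.63. All 6 regions had a higher number in library 2, but the scaling of the signal is not stated, so levels are compared only within a library.

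The 6 strongest coding regions held no such consensus. Strength here is the percentile of a region's signal among the 35217 shared regions of a library, averaged over both libraries. For these 6 the widest footprint of at most 30 bases that was overlapped by a footprint of the other library is shown, on the strand of the gene. Capitals mark a match to any of 16 motifs searched.
Angptl6: ctgggcCAGCTGcgcgcgcaattgcag
Ccdc194: tgttagccgcgaggtggcgctgagggagca
Sptbn4: cccagggaggctccgcccccgcgccg
Rimbp3: agcgggaagtgctgcgcctgc
Zfp771: cagccgccacgcccaccgagc
Klf1: agctccaggcgccccctatgggctgctg

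Only the Angptl6 footprint (chr9:20878274-20878300, minus strand) held an exact match, to CAGCTG, a hexamer bound by E proteins and related basic helix-loop-helix factors. The Ccdc194 footprint (chr8:71521842-71521871, minus strand) came within 1 mismatch of the CTCF consensus. The footprints of Sptbn4 (chr7:27361653-27361678, minus strand), Rimbp3 (chr16:17210260-17210280, plus strand), Zfp771 (chr7:127254571-127254591, plus strand) and Klf1 (chr8:84903156-84903183, plus strand) held no match to the motifs searched, which says only that these letters are absent from these stretches. Other footprints of the same regions did hold matches, in both libraries. These were to GGGCGGG, bound by SP and KLF factors, in Sptbn4, and to the NRF1 motif in Zfp771 and Angptl6.

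Coding exons held open regions at a higher density than introns in each of 4 ranges of distance from a start. Exonic regions made up 7.85% (7.45% to 8.26%) of the 17092 shared regions outside promoters, and 7.16% and 7.85% of the peaks outside promoters in each library alone. Per Mb of eligible sequence, meaning sequence over 1 kb from a start, there were 15.9 exonic regions, 7.62 intronic ones and 5.78 intergenic ones. Coding sequence carried 19.3 per Mb and 3′ UTRs 14.9 per Mb. Exons of noncoding transcripts of coding genes had 13.5 per Mb and those of other genes 13.7 per Mb. The 5′ UTRs had 28.2 per Mb, from 19 regions in 0.674 Mb.

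Coding sequence stood above 3′ UTRs near starts. Between 1 and 2 kb from a start, coding sequence held 38.3 regions per Mb, against 17.5 in 3′ UTRs, 17.7 in introns and 14.8 between genes. From 2 to 5 kb the coding value was 20.1 per Mb and the 3′ UTR value 17.4, with 11.4 in introns. Between 5 and 20 kb coding sequence and 3′ UTRs stood at 15.2 and 14.8, and beyond 20 kb at 9.15 and 9.03. Introns fell to 7.85 and 3.94 per Mb over the same steps. Beyond 5 kb coding sequence and 3′ UTRs lay close together and above introns. Of all exonic regions 28.6% (26.3% to 31.1%) lay 1 to 2 kb from a start, where 19.6% of eligible exon bases lie. For coding regions these shares were 31.7% and 15.9%, and for 3′ UTR regions 14.5% and 12.4%. In each library alone, 29.8% and 27.8% of exonic peaks lay at that distance.

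**Figure D1:**
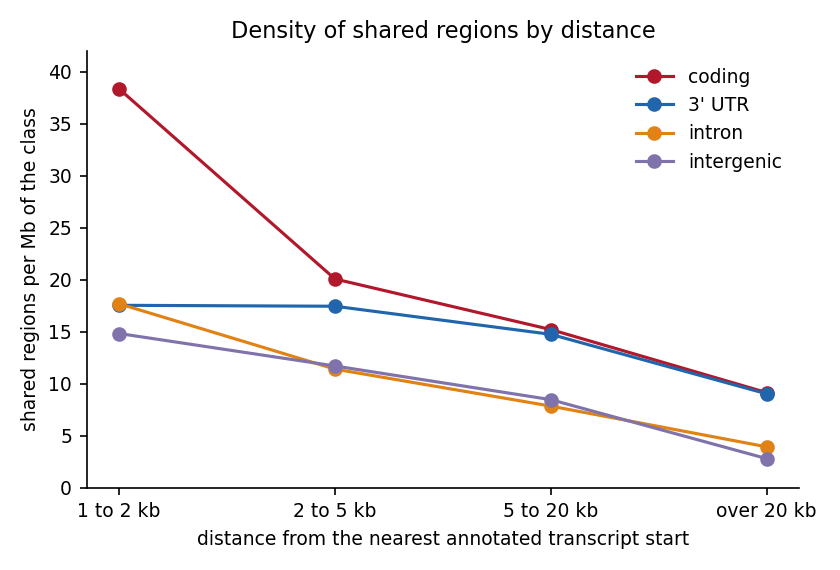
Shared regions per Mb of eligible sequence (y axis) in 4 ranges of distance from the nearest annotated transcript start (x axis), for coding sequence, 3′ UTRs, introns and intergenic sequence. Coding sequence reaches 38.3 per Mb at 1 to 2 kb, and coding sequence and 3′ UTRs stay above introns and intergenic sequence beyond 2 kb.

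At the limit of the rule the number of regions did not jump. In the last 100 bp before the limit of 1 kb lay 57 exonic shared regions, which the rule left out, and in the 100 bp beyond it 59 that it kept. The nearest kept were in Zfhx2 (signals of 1.39 and 3.54), Mos (1004 bp, 0.635 and 0.586) and Tsix (1007 bp, 1.20 and 0.755). Those just left out, at 998, 990 and 989 bp, had signals of 2.74 and 1.81, 3.06 and 2.70, and 1.22 and 0.493.

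Some regions, whose midpoints all lay over 1 kb from any GENCODE start, lay near a RefSeq transcript start. A RefSeq start lay within 1 kb of 81 regions (6.04%). The share of eligible exon sequence this near a RefSeq start was not computed, so 6.04% has no background beside it. This held for 10 of the 19 regions in 5′ UTRs, for 37 coding regions and for 9 in 3′ UTRs. The 5′ UTR region of Sf3b5, which encodes a subunit of the spliceosome, lay 19 bp from a RefSeq start and 3088 bp from the nearest GENCODE start, with signals of 6.51 and 8.29. The one in Rap2b, which encodes a small GTPase, lay 26 bp and 1470 bp away, with signals of 5.32 and 11.5. For Hist1h1d, which encodes a linker histone, the distances were 29 and 1799 bp and the signals 4.10 and 7.40. In Swap70, an adaptor of B cells and mast cells, a region in a noncoding transcript lay 13 bp from a RefSeq start, with signals of 6.15 and 6.70. No GENCODE promoter peak was listed for Sf3b5, Rap2b or Hist1h1d outside these regions.

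Most regions lay in the last exon of their transcript. The last exon held 62.7% of all regions, an internal exon 25.1%, a single-exon transcript 9.62% and the first exon 2.54%. Coding regions lay in internal exons in 55.5% and in the last exon in 36.4%. Within 1 kb of the transcript end lay 40.7% of all regions and 54.9% of those in 3′ UTRs. The rule itself removes sequence near starts, 3′ UTRs lie mostly in last exons, and the share of eligible exon sequence in these positions was not computed. A region was 200 bp wide in the median. The whole region was exonic in 93.7% of 3′ UTR regions and in 41.6% of coding ones. The other 58.4% of coding regions (53.9% to 62.7%) crossed an exon boundary, and thus covered intron too. The exon around a coding region had a median length of 477 bp.

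Peak signal in exons was below that at promoters and a little above that in introns. Signal is the height given by the authors for a peak, and the highest peak of each library was taken. Medians were 1.88 and 2.06 in exonic regions, 1.75 and 1.89 in coding ones and 2.03 and 2.08 in 3′ UTRs. In introns they were 1.61 and 1.70, between genes 1.81 and 1.89, and at promoters 3.49 and 4.91. Exonic values ran from 0.188 to 74.1 in library 1. In library 2 the range was 0.224 to 53.3. Spearman's correlation of signal between the libraries was 0.594 across the 1341 regions, 0.569 across intronic and 0.819 across promoter regions. Each point is 1 genomic region measured in both libraries. The regions were selected on peaks in both libraries, so these are descriptions.

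**Figure D2:**
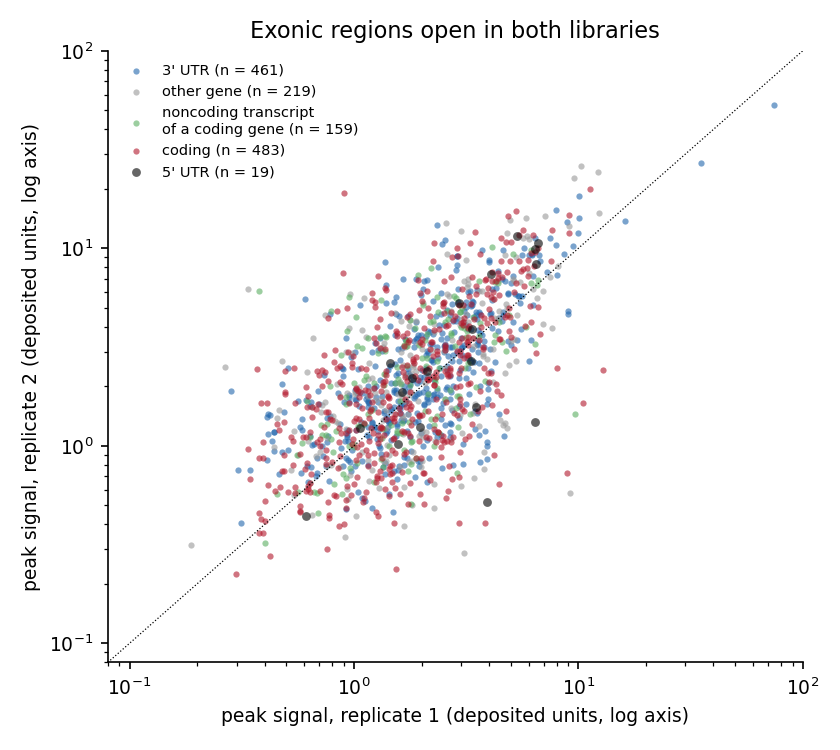
Peak signal in library 2 (y axis) against that in library 1 (x axis), both on log axes in the deposited units, for the 1341 exonic regions coloured by class; the dotted line marks equal numbers. The middle 50% of regions lie from 1.15 to 3.10 in library 1 and from 1.17 to 3.95 in library 2, the Lars2 region stands at the upper right with 74.1 and 53.3, and all classes overlap.

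The 2 highest regions were in 3′ UTRs. In Lars2, which encodes the mitochondrial leucyl-tRNA synthetase, the region at chr9:123461901-123462120 had signals of 74.1 and 53.3. It has 4 further copies in the assembly (at least 90% identity over at least 80% of the region), so reads of other loci can be counted there. In Cers5, which encodes a ceramide synthase, the region at chr15:99735641-99736060 had 35.1 and 27.1 and no further copy. Both stood far above the other exonic regions in library 1. Further 3′ UTR regions without a copy lay in Ubqln1, which encodes a protein that carries ubiquitinated proteins to the proteasome (16.1 and 13.7), in nonagouti (symbol a), which encodes agouti signalling protein (10.1 and 18.3), in Rtn2, a reticulon of the endoplasmic reticulum (10.04 and 14.2), and in Slc16a5, a member of the monocarboxylate transporter family (7.99 and 15.5). Nonagouti also had promoter signals of 5.86 and 18.4.

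The coding region with the highest mean percentile was in exon 2 of 6 of Angptl6, which encodes a secreted angiopoietin-like protein (chr9:20878201-20878520), with signals of 11.3 and 19.9. No promoter peak of the gene was listed in either library, and a RefSeq start lay 299 bp away. Ccdc194 (chr8:71521761-71521940, exon 3 of 4) followed with 9.11 and 14.8 and again no promoter peak. Sptbn4, which encodes the spectrin of axon initial segments and nodes, held 9.09 and 11.9 in exon 33 of 36 (chr7:27361461-27361680) and had promoter signals of 8.00 and 11.9. Rimbp3, a single-exon gene active in sperm formation, had 7.60 and 12.3 (chr16:17210061-17210300), and the zinc finger gene Zfp771 had 6.30 and 11.7 (chr7:127254021-127254620). These 5 had a GC content of 57.8% in Ccdc194 and 62.1% to 71.7% in the other 4. Klf1, which encodes a transcription factor of red cell precursors, had 5.28 and 15.4 in exon 2 of 3 (chr8:84903081-84903540). In library 1 alone the highest coding signal was in the last of 5 exons of Spi1, which encodes the myeloid and B cell factor PU.1, with 12.9 and 2.42.

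Among regions in genes that encode no protein, A430078I02Rik, an antisense transcript, had 12.2 and 24.4 (chr6:86472221-86472520) and Gm14486, a lincRNA, had 10.3 and 26.0 (chr2:30658501-30658740). Both had a GC content above 70%, at 71.7% and 74.2%. In transcripts without coding sequence of protein-coding genes the strongest were in Setd1b, which encodes a histone H3 lysine 4 methyltransferase (6.14 and 9.84), in Gmfg, which encodes a regulator of actin branching in blood cells (6.63 and 6.93), and in Gpr162 (5.13 and 9.36).

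CpG-rich sequence was more frequent in coding regions than in 3′ UTR regions. A region was called CpG-rich when its GC content was at least 50% and its observed CpG count at least 0.6 of that expected from its base content. This held for 209 of 483 coding regions (43.3%, 38.9% to 47.7%) but for 45 of 461 3′ UTR regions (9.76%, 7.37% to 12.8%). It held for 11 of 159 regions in noncoding transcripts of coding genes (6.92%) and 43 of 219 in other genes (19.6%). In 5′ UTRs it held for 9 of 19 (47.4%, 27.3% to 68.3%), an interval that includes the coding share. Coding regions with a peak in a single library had 23.2% (library 1 only) and 21.6% (library 2 only), and exonic regions of a single library had 11.4% and 13.2%. Intronic regions stood at 5.92%, intergenic ones at 10.2% and promoters at 72.2%. Exonic regions as a whole were at 23.6%, which was 17.7 points above introns (15.4 to 20.1), with a difference from promoters of -48.5 points (-50.8 to -46.1). Coding sequence without a peak had a lower share. Of 122030 tiles of 200 bp of eligible coding sequence with no peak in either library, 5.92% were CpG-rich, and of 151002 such 3′ UTR tiles, 0.703%.

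Open regions in coding sequence and 3′ UTRs had a higher GC content than tiles without a peak. Median GC was 59.2% in coding regions and 49.5% in coding tiles without a peak. In 3′ UTRs the medians were 53.7% and 42.5%. Intronic regions had 51.7% and promoters 64%. In exonic peaks of each library alone the median was 53.7% and 55.8%, beside 55.4% in the shared regions. A link of peak calling with base composition was not tested.

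Many of the widest regions lay in coding exons. Of 68 regions wider than 500 bp, 46 were coding. Among these 46, CpG-rich sequence made up 73.9%, 67.4% lay 1 to 2 kb from a start, and a CTCF consensus was found in 1. A footprint shared by both libraries was found in 41.3% of them, against 88.3% of narrower coding regions. The widest lay in Fjx1, which encodes a secreted regulator of dendrites (2200 bp, single exon, signals of 2.71 and 1.05), in Ntn1, which encodes the axon guidance protein netrin 1 (1960 bp, 1.94 and 1.06), in Man1a, which encodes a mannosidase of the Golgi (1440 bp, 2.96 and 3.04) and in Tsc22d4 (1380 bp, 0.894 and 7.497). Sox4, which encodes a transcription factor of lymphocyte and neural development, had 1300 bp with 2.55 and 3.23.

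A CTCF consensus was found in the central 200 bp of 389 exonic regions (29.0%, 26.6% to 31.5%). The share was 26.7% in coding regions (23.0% to 30.8%), 34.3% in 3′ UTRs (30.1% to 38.7%), 30.8% in noncoding transcripts of coding genes and 22.4% in other genes. It was 30.5% in introns and 30.7% between genes. The difference from introns was -1.51 points (-4.09 to 1.18), an interval that includes 0. At promoters the share was 5.80%, lower by 23.2 points (20.8 to 25.7). In exon tiles of the same width with no peak, 0.459% of coding and 0.226% of 3′ UTR tiles held the consensus. With 1 mismatch allowed, the consensus stood in 63.2% of exonic regions, 58.0% of coding regions and 8.56% of coding tiles. The consensus with 1 mismatch is thus far less specific.

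**Figure D3:**
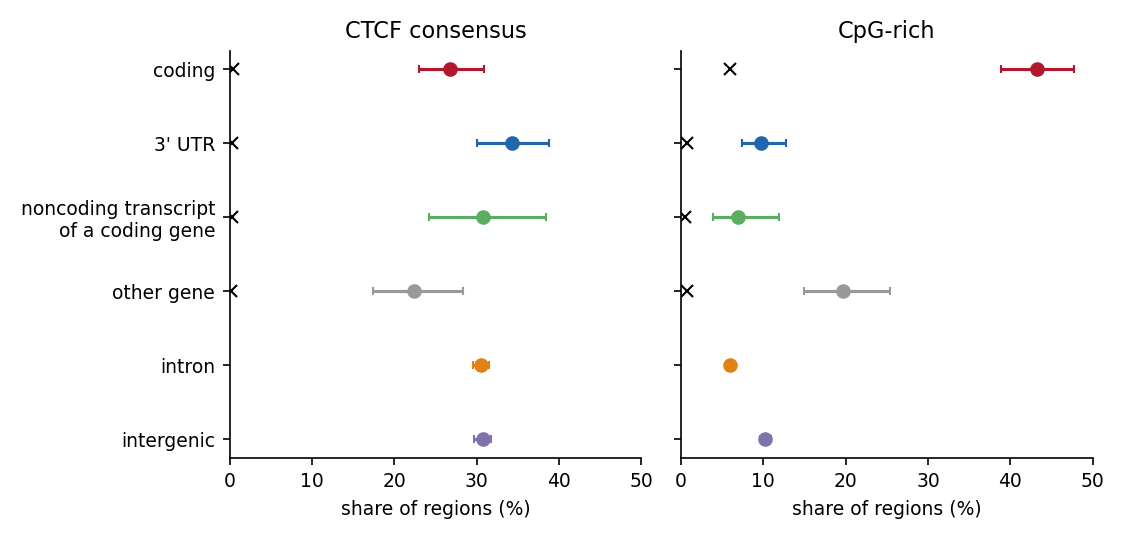
Share of shared regions with a CTCF consensus in the central 200 bp (left) and share that is CpG-rich (right), by class; points are shares, bars their 95% Wilson intervals, and crosses mark 200 bp exon tiles of the same class with no peak in either library. CTCF shares lie between 22.4% and 34.3% in the 6 classes drawn (coding, 3′ UTR, noncoding transcript of a coding gene, other gene, intron and intergenic), while the CpG-rich share reaches 43.3% in coding regions and 5.92% in introns.

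Most of these sites lay in a protected stretch. In 348 exonic regions (25.9%, 23.7% to 28.4%) the consensus was inside a footprint of both libraries. This held in 22.4% of coding regions, 32.8% of 3′ UTR regions and 26.5% of intronic regions. A footprint was overlapped by one of the other library in 88.9% of exonic regions (87.1% to 90.5%), in 83.9% of coding and 93.9% of 3′ UTR ones, and in 90.04% of intronic ones. The exonic regions held 4173 and 4426 footprints, or 12.6 and 13.4 per kb. Footprints come from the same alignments as the peaks and are no independent evidence of opening. In exonic peaks of each library alone, 81.8% and 88.4% held a footprint of that library.

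CTCF sites in coding sequence leaned to the strand opposite the gene, as matches in coding sequence outside all peaks did. In the coding regions 135 matches were found, of which 110 lay wholly in coding sequence of the transcript and 25 partly or wholly outside it. Of the 110, 66 (60.0%, 50.7% to 68.7%) read against the gene. In eligible coding sequence outside all peaks 372 of 609 matches did (61.1%, 57.2% to 64.9%), which lies within that interval. In 3′ UTR regions the share was 55.0% (47.5% to 62.3%), an interval that includes 50%. On the strand of the gene, the first base of matches along the gene lay at codon position 1, 2 and 3 in 11, 7 and 26 cases. For matches against the gene that base is the last of the consensus, and the numbers were 17, 29 and 20. Codon positions of matches outside peaks were not counted.

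The consensus was more frequent in exonic regions of both libraries than in those of a single one. Of 5109 exonic regions with a peak in either library, 1341 (26.2%) had both. Outside promoters the share with both was 21.1% in introns and 28.3% between genes. It was 33.3% of merged regions anywhere, promoters included. A further 2394 had a peak only in library 1 and 1374 only in library 2. The consensus stood in 29.0% of the shared ones, in 3.51% (2.84% to 4.32%) of those of library 1 alone and in 5.24% (4.18% to 6.55%) of those of library 2 alone. Unshared regions were weaker, with median signals of 0.941 and 1.08. The part of signal in this difference was not tested, and the rule itself used both the peaks and their sharing. When the exonic regions of library 1 were put in 4 equal groups by signal, the consensus stood, in the weakest group, in 22.3% (16.0% to 30.2%) of the shared and 4.60% (3.36% to 6.28%) of the unshared ones. In its strongest group these shares were 33.2% (29.5% to 37.1%) and 2.03% (0.989% to 4.14%). In library 2 they were 24.9% (19.3% to 31.5%) and 4.29% (2.82% to 6.46%) in the weakest group, and 33.8% (29.9% to 37.9%) and 5.71% (2.92% to 10.9%) in the strongest. Taking all exonic peaks of each library, shared or not, 12.6% and 16.9% held the consensus.

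**Figure D4:**
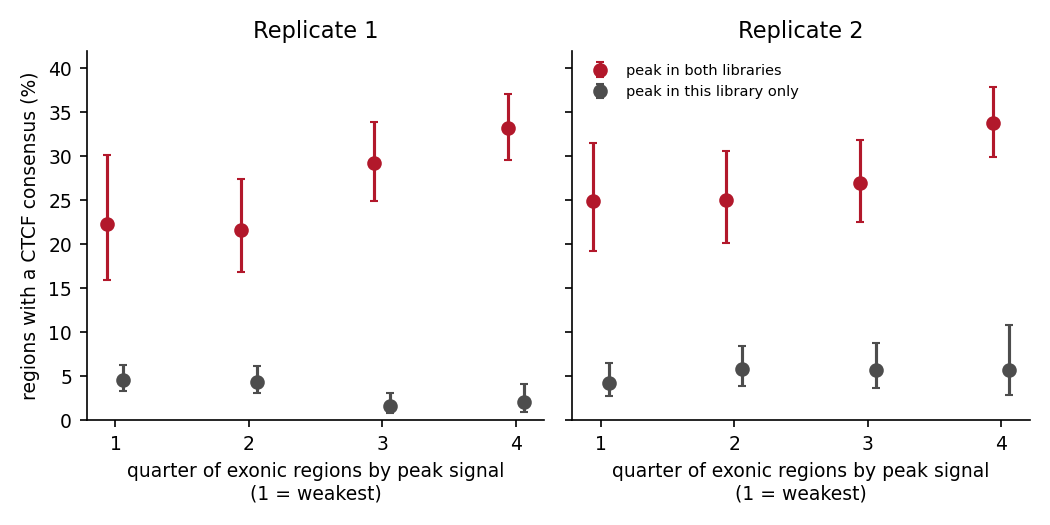
Share of exonic regions with a CTCF consensus (y axis, with 95% Wilson intervals) in 4 equal groups of peak signal (x axis, 1 the weakest), for regions with a peak in both libraries (red) and in the library shown only (grey). In both libraries and all 4 groups the shared regions lie at 21.6% or more and the others at 5.78% or less.

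Other motifs differed among themselves in where they were most frequent. Each was searched on both strands of the central 200 bp. TGTGGTT, bound by RUNX factors of T cells and other lineages, stood in 3.58% (2.71% to 4.71%) of shared exonic regions, in 3.97% (3.26% to 4.83%) of those of library 1 alone and in 8.30% (6.95% to 9.87%) of those of library 2 alone. The YY1 motif stood in 2.24% (1.57% to 3.18%), 1.04% (0.708% to 1.54%) and 0.873% (0.5003% to 1.52%), so it was, like the CTCF consensus, most frequent in shared regions. The NRF1 motif stood in 0.895%, 0.251% and 0.218%, and the REST motif in 5, 3 and 0 regions. The palindromic NFI motif stood in 1.49%, 3.13% and 1.09% of these sets, and the HNF4 motif in 3, 18 and 0 regions, where 0 of 1374 allows a share of up to 0.279% (Wilson). Among these motifs, the library labelled replicate 2 alone was thus highest for RUNX, and library 1 alone for NFI and HNF4. The HNF4 intervals of library 1 alone (0.476% to 1.185%) and of shared regions (0.0761% to 0.656%) overlapped. The GATA motif stood in 1.42%, 3.05% and 1.53% of the same sets, and the AP-1 motif in 3.73%, 6.10% and 5.095%. The TCF/LEF motif stood in 2.24%, 2.80% and 3.93%. GATA and AP-1 were thus highest in library 1 alone, and TCF/LEF in library 2 alone. The GATA interval of library 1 alone (2.43% to 3.82%) overlapped neither of the others. For AP-1 the intervals of library 1 alone (5.21% to 7.13%) and library 2 alone (4.05% to 6.39%) overlapped. For TCF/LEF the interval of library 2 alone (3.025% to 5.09%) overlapped those of library 1 alone (2.21% to 3.54%) and of shared regions (1.57% to 3.18%). The part of cell type in these differences was not tested. CAGCTG stood in 18.9%, 24.5% and 23.7%. Among coding regions it stood in 24.6% (21% to 28.7%), beside 14.9% of coding tiles without a peak. For CAGGTG these were 32.3% and 19.7%. GC-rich GGGCGGG, bound by SP and KLF factors, stood in 7.61% of exonic regions and 36.7% of promoters, and occurred in 1.67% of coding tiles without a peak.

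Sorting the regions by these features gave 402 with a CTCF consensus anywhere in the region, 266 that were CpG-rich without it, and 673 with neither. In coding sequence the numbers were 133, 170 and 180, and in 3′ UTRs 164, 41 and 256. CpG-rich coding regions lay 1 to 2 kb from a start in 42.9%, those with the consensus in 27.1% and those with neither in 24.4%. Median signals of the coding regions were 2.15 and 2.14 with the consensus, 1.90 and 2.26 in the CpG-rich group, and 1.48 and 1.60 with neither. The group with neither was the lowest in both libraries.

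Host genes were 1045 protein-coding genes, or 4.76% of the 21938 protein-coding genes, and 203 other genes. Of the protein-coding hosts 973 held 1 region, 67 held 2 and 5 held 3. Another shared region lay in an intron of 356 of them. A promoter peak in both libraries was found for 751 hosts (71.9%, 69.1% to 74.5%), beside 56.7% of all protein-coding genes. Peaks belonging to the exonic regions were left out of this count. The share was 66.0% (61.6% to 70.2%) for hosts of a coding region and 74.4% (70.2% to 78.2%) for hosts of a 3′ UTR region. Genes that held shared regions in introns and none in exons had 75.3% (74.0% to 76.6%), so exonic hosts did not exceed them. Hosts were longer than other genes, with a median of 26.7 kb beside 17.4 kb for all genes, and intronic hosts had 60.4 kb.

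In 175 of the 1045 hosts no promoter peak was listed in either library, beside 7360 of all 21938 protein-coding genes. Counting regions, 103 coding regions lay in hosts without a promoter peak, and 51.5% of them were CpG-rich. This was 37.6% of the 319 coding regions whose gene had a promoter peak in both libraries. It was 59.0% of the 61 whose gene had one in 1 library, so the share did not fall steadily with promoter peaks. CTCF shares were 28.2%, 26.6% and 31.15% in these groups. With exonic peaks of each library alone, 81.9% and 79.2% of hosts had a promoter peak in that library, against 63.0% and 60.0% of all genes.

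**Figure D5:**
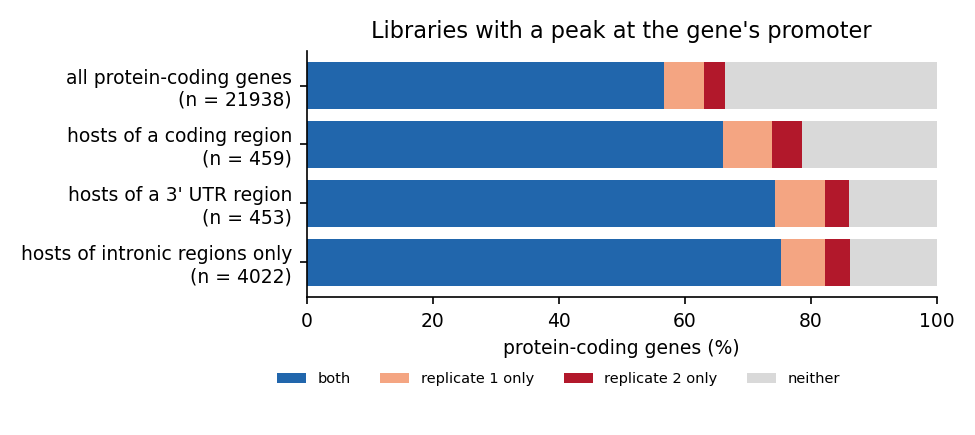
Share of protein-coding genes (x axis) with a promoter peak in both libraries, in 1 of them or in neither, for all genes, hosts of coding regions, hosts of 3′ UTR regions, and hosts of intronic regions without an exonic one. A peak in both libraries is found for 56.7% of all genes and for 66.0%, 74.4% and 75.3% of the host groups.

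Several genes held 3 regions. In Sptbn4 they lay in coding exons 33, 17 and 14 of 36, with signals of 9.09 and 11.9, 2.85 and 1.99, and 1.87 and 2.27. In Dst, which encodes dystonin, a linker of the cytoskeleton, 2 lay in coding exons 53 and 36 of 98 and each held a CTCF consensus, with signals of 3.44 and 4.36, and 0.690 and 1.62. Another lay in a noncoding transcript, with 4.55 and 3.36. Itpkb, which encodes an inositol trisphosphate kinase needed in T cell development, had one in coding exon 2 of 8 (0.862 and 2.54) and a pair in its 3′ UTR (2.09 and 2.47, and 1.37 and 0.717). Upk3b, which encodes a uroplakin, had 3 in its 3′ UTR, the strongest with 4.84 and 5.86, and no promoter peak. Tob2, which encodes an antiproliferative protein, had 3.15 and 3.54 in the strongest of its 3. Outside protein-coding genes D030034A15Rik, 4930578M01Rik, Ppp4r1l-ps and Pisd-ps1 had 3 each, and those of Pisd-ps1 have 3 further copies in the assembly.

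Of 24 listed immediate early and circadian genes, which respond fast to stimulation or to the daily cycle, 5 were hosts, among them 3 subunits of the AP-1 factor. This was 20.8%, beside 4.76% of all protein-coding genes. Fosb held a 3′ UTR region with signals of 3.65 and 4.63, Junb a coding one with 2.01 and 5.42, and Ier2 a 3′ UTR one with 6.12 and 3.43. Ier5 held a 3′ UTR region with 1.58 and 4.54, and Jun one with 3.82 and 1.19. The distance from a start was 1141 bp in Ier2, 1074 bp in Junb, 1185 bp in Ier5, 1443 bp in Jun and 3191 bp in Fosb. Of the 24 genes, 23 and 24 had a promoter peak.

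Of 20 T lineage transcription factors 2 were hosts (10%), beside 4.76% of all protein-coding genes. None of 20 T cell receptor and coreceptor genes was a host, and 5 and 19 had a promoter peak. A list of 20 genes is too short to tell either no host or 2 hosts from a share of 4.76%. Zbtb7b, the factor of the CD4 lineage, held a 3′ UTR region with signals of 1.53 and 2.60 and a CTCF consensus. Notch1, the receptor of T cell commitment, held a 3′ UTR region with 1.14 and 1.73. Promoter signals of Zbtb7b were 9.43 and 2.99, and those of Notch1 3.28 and 8.67.

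Of 25 chromatin regulators 3 were hosts (12%), namely Setd1b, Kmt2a and Bcor, beside 4.76% of all protein-coding genes. Kmt2a, which encodes a histone H3 lysine 4 methyltransferase, held a coding region in exon 11 of 36 with 3.07 and 4.24 and a CTCF consensus. Bcor, which encodes a subunit of a Polycomb complex, held one in a noncoding transcript with 2.04 and 5.15. Keratin genes were hosts in 4 of 49 (8.16%, beside the same 4.76%), all by coding regions. Krt88 had 1.98 and 2.49, Krt90 0.870 and 2.10, Krt77 1.77 and 0.647 and Krt75 1.53 and 0.609. No promoter peak was listed for them in either library. Keratins are epithelial proteins, and 9 and 4 of the 49 genes had a promoter peak. Lists of 25 and 49 genes are too short to tell 3 and 4 hosts from a share of 4.76%.

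For the lists that follow, the share of hosts among all protein-coding genes was 4.76%. Zinc finger genes named Zfp, Zscan or Zkscan were hosts in 13 of 424 (3.07%), 7 of them by coding regions. Collagen genes were hosts in 3 of 44, replication-dependent histone genes in 2 of 67, protocadherins in 2 of 69, actin cytoskeleton genes in 1 of 16 (Actn1), pancreatic acinar genes in 1 of 21 and olfactory receptors in 1 of 1135. No host was found among 20 cytosolic ribosomal protein genes, 15 thymic epithelium genes or 39 Hox genes. Lists this short can hold no host at the share of all protein-coding genes. All 20 ribosomal protein genes had a promoter peak in each library. These counts describe the lists, and no list was tested.

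A few regions were strong in only one of the libraries. The differences below were chosen for their size. In Ttc16 a coding region had signals of 8.91 and 0.732, at percentiles 96.1 and 9.67, although the gene's promoter signals were 9.44 and 14.9. Cela2a, which encodes a pancreatic elastase, held a coding region in exon 3 of 8 with 4.44 and 0.640 (chr4:141822161-141822400). Its promoter had 5.86 and no peak. In Gas2l1, which encodes a linker of actin and microtubules, a region had 9.66 and 1.44. Foxq1, a forkhead factor gene, had 3.92 and 0.516 in its 5′ UTR, 29 bp from a RefSeq start. Tenm2, which encodes a teneurin adhesion protein, had 3.84 and 0.408 in coding exon 8 of 31, and the lincRNA Gm26576 had 9.22 and 0.578. These regions are high in the library whose pancreatic acinar promoters were open.

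In the other direction Lgals7, which encodes galectin 7 of stratified epithelia, had 0.902 and 19.1 in its last coding exon (chr7:28866041-28866240), at percentiles 14.9 and 97.2, and no promoter peak. Syk, which encodes a tyrosine kinase of immune receptors, had 0.376 and 6.07 in a noncoding transcript, with a CTCF consensus, and promoter signals of 0.423 and 4.92. Tsc22d4 had 0.894 and 7.497 in coding exon 2 of 5. Lynx1, which encodes a modulator of nicotinic receptors, had 0.604 and 5.53 in its 3′ UTR, and the lincRNAs Gm48545 and Gm4598 had 0.337 and 6.25, and 0.956 and 5.85. These are high in the library whose thymocyte promoters were open. The part of cell type in either set was not tested.

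Regions with further copies were 35 of 1341 (2.61%), 9 of them coding and 18 in 3′ UTRs. Besides Lars2 they included the neighbouring cytochrome P450 genes Cyp4f17 (6.02 and 9.21) and Cyp4f16 (5.36 and 5.76), with 1 further copy each, and Gm11168 (4.01 and 2.10) with 392. Signal at such regions may come from any copy. Repeats covered over 50% of 36 regions.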

How the data were processed

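DNase-seq of 2 libraries of 1 group, labelled as thymus, was used, as deposited. The peak lists hold a signal per peak (the authors' height; scaling, caller, thresholds and aligner not given in the sources used here), and the footprint lists hold a score that was 0.01 in every deposited row and was not used to rank. Per the deposited notes both were derived from 1 filtered alignment per library, on mm10. Of the 2 deposited peak lists per library the shorter was used (85367 and 60644 peaks). The deposited tables of per-interval false discovery rates were not used here.

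Peaks were merged in Python 3.11.15 with numpy 2.4.6, pandas 2.3.3 and scipy 1.17.1. Classes were taken at the midpoint from GENCODE M21 (132629 distinct starts), coding sequence first, then 5′ UTR, 3′ UTR, noncoding transcript of a coding gene, and other gene. Promoters were within 1 kb of a start. Copies were sought with blastn 2.17.0 in GRCm38. Sequences come from the RefSeq copy of that assembly. Motifs (16, those of 8 or more letters and those of GATA, AP-1 and TCF/LEF factors given by name) were exact matches on both strands. The functions were tested on simulated data. Members, gene lists, motifs and alternatives were chosen with earlier results of these data known. Named were, per class, the 5 strongest regions without and the 3 strongest with a further copy, host genes of 3 regions, the 6 largest differences between libraries in each direction, up to 4 hosts per list, and the 3 regions nearest the distance limit on either side. The widest and CpG-rich regions, Swap70's RefSeq distance, Jun, Spi1, the strand of CTCF matches and the comparison with unshared regions were chosen after values were seen. Alternatives were the start distance, the longer or stronger peaks, reciprocal overlap, basic transcripts, placement by length, class precedence, copies and each library alone.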

Additional observations from a re-analysis of the deposited data

How the results depend on the processing

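The number of regions, the exonic and coding shares, the share near starts, signal, GC content, and the footprint, CTCF and host promoter shares were recomputed under the alternatives that apply to each. The CpG-rich share, densities, exon positions and other motifs were not. Of 91 recomputed values 49 stayed within 1.5 times (counts) or within the 95% interval of the reported value, and 42 moved beyond it. The number of regions was 867 with starts at 2500 bp and 663 with the stronger 50% of peaks. Library 1 alone gave 3762 and library 2 alone 2737 exonic peaks, since these need not be shared. The exonic share was 9.74% at 500 bp, 6.20% at 2500 bp, 8.74% with stronger peaks, 7.40% with basic transcripts and 7.16% to 7.85% in single libraries. The coding share was 32.0% with stronger peaks, 32.0% with untranslated sequence placed before coding, 46.6% with basic transcripts and 36.0% to 39.5% in single libraries. The share 1 to 2 kb from a start was 19.8% at 500 bp and 21.4% with basic transcripts, and at 2500 bp no value exists. At 500 bp the same 384 regions were counted, among 1935 exonic regions in place of 1341. The median signal percentile was 34.6 with stronger peaks, and 43.2 to 47.7 in single libraries, beside 41.0. It was ranked anew among the regions of each setting, so these percentiles refer to different sets. Median GC was 56.2% at 500 bp, 54.5% at 2500 bp, 56.2% with stronger peaks, 56.5% with basic transcripts and 53.7% to 55.8% in single libraries. The share with a shared footprint was 79.8% at 500 bp, 91.8% at 2500 bp, 73.7% with the longer lists, 97.6% with stronger peaks, and 92.7% with 50% reciprocal overlap. In single libraries, where the share is of peaks with a footprint of that library, it was 81.8% to 88.4%, beside 96.1% and 96.9% of the shared regions by that measure. The CTCF share was 23.2% at 500 bp, 23.4% with the longer lists, 32.6% with stronger peaks, 31.7% with reciprocal overlap, 63.2% with 1 mismatch and 12.6% to 16.9% in single libraries. The share of hosts with an open promoter was 77.3% with the longer lists, 62.9% with stronger peaks, 62.2% with reciprocal overlap, 65.7% with basic transcripts and 79.2% to 81.9% in single libraries. In each of these 5 settings it stayed above all protein-coding genes, at 61.1%, 48.7%, 50.7%, 54.7%, and 60.0% to 63.0%. Leaving out copies or placing by length moved no value beyond its interval. The cause of these moves was not tested. The values of single libraries also include unshared peaks. Depth is unknown, so a region without a peak in 1 library may only be below its detection limit.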
